A study of Mus musculus with 16 samples.

Results

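DNA methylation is copied at replication by the maintenance methyltransferase DNMT1, which is brought to newly replicated DNA by UHRF1, while DNMT3A and DNMT3B place new methyl groups. The TET enzymes oxidise methylcytosine as a step towards its removal, and TRIM28 is the corepressor through which KRAB zinc finger proteins keep imprinted regions methylated. EZH1 and EZH2 are the alternative catalytic subunits of Polycomb repressive complex 2 (PRC2), which methylates histone H3 on its tail (H3K27).

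The 10 genes encoding these proteins, Dnmt1, Uhrf1, Dnmt3a, Dnmt3b, Tet1, Tet2, Tet3, Trim28, Ezh1 and Ezh2, were taken by name from the 50600 genes counted in each library. The rule that names them uses no measured value, although it was set with earlier results of these data known, and all 10 passed the filter on low counts in every comparison. Expression and alleles were read by stranded RNA-seq of cultured mouse cells from the hybrid 129Sv x Cast/EiJ. Neural progenitor cells (NPCs) had been derived from ES cells with N2B27 medium, EGF and FGF2, and each clone was a colony picked by hand after limited dilution. Astrocytes had been differentiated from such clones with BMP4.

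There were 16 libraries from 12 clones. The polyA enrichment libraries were 5 of astrocytes, from the female clones 129, C2 and G4 and the male clones mC3 and mE6, and 3 of NPCs, from the female clone F5 and the male clones mG2 and mG6. The other 8 libraries were 2 from each of 4 male NPC clones named Ch3, Ch5, Ch7 and Ch8, whose ribosomal RNA had been depleted. No astrocyte clone was also read here as NPCs, so a difference between the cell types cannot be told apart from a difference between the clones. Nothing in the labels says that libraries of 1 clone came from separate cultures, and the study's methods call its replicates biological without saying how they were grown. The p-values among the Ch clones therefore measure only the spread between these libraries, part of which may be technical.

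The poly(A) libraries held 69925081 to 105892734 counted read pairs and the rRNA-depleted ones 20871111 to 30920672, of which 30.5 to 34.8% and 18.9 to 21.1% were assigned to an allele. Of 10 astrocyte markers, Gfap, Aqp4 and Slc1a2 were higher in the astrocyte clones, Aldh1l1 was lower and 6 did not pass the test. Of 7 NPC markers, Nes, Olig2 and Egfr were lower and 4 did not pass. All 10 proliferation markers were lower, with a summed level of 42.4 to 93.2 CPM (a gene's read pairs scaled to the library's total) in astrocytes and 1839 to 2303 CPM in poly(A) NPCs. Summed fibroblast markers reached 219 CPM in the astrocyte clones and 12.8 CPM in the poly(A) NPC clones, with Col1a1 the 1 of 5 tested that passed. Microglial markers summed to at most 0.0675 CPM in any poly(A) library.

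The first question was how the regulators differed between astrocytes and NPCs of the same library preparation. Of the 10 genes, 4 were lower in astrocytes (Uhrf1, Ezh2, Dnmt1 and Trim28), 1 was higher (Ezh1) and 5 did not pass the test at an adjusted p under 0.05 (edgeR's quasi-likelihood test, Benjamini-Hochberg over 18192 genes). Among all tested genes, 12.6% were lower and 13.0% were higher. The median log2 fold change was -0.71 over the 10 genes and 0.08 over all genes tested. In bulk RNA, fewer cells that express a gene and less RNA per cell cannot be told apart.

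**Figure D1:**
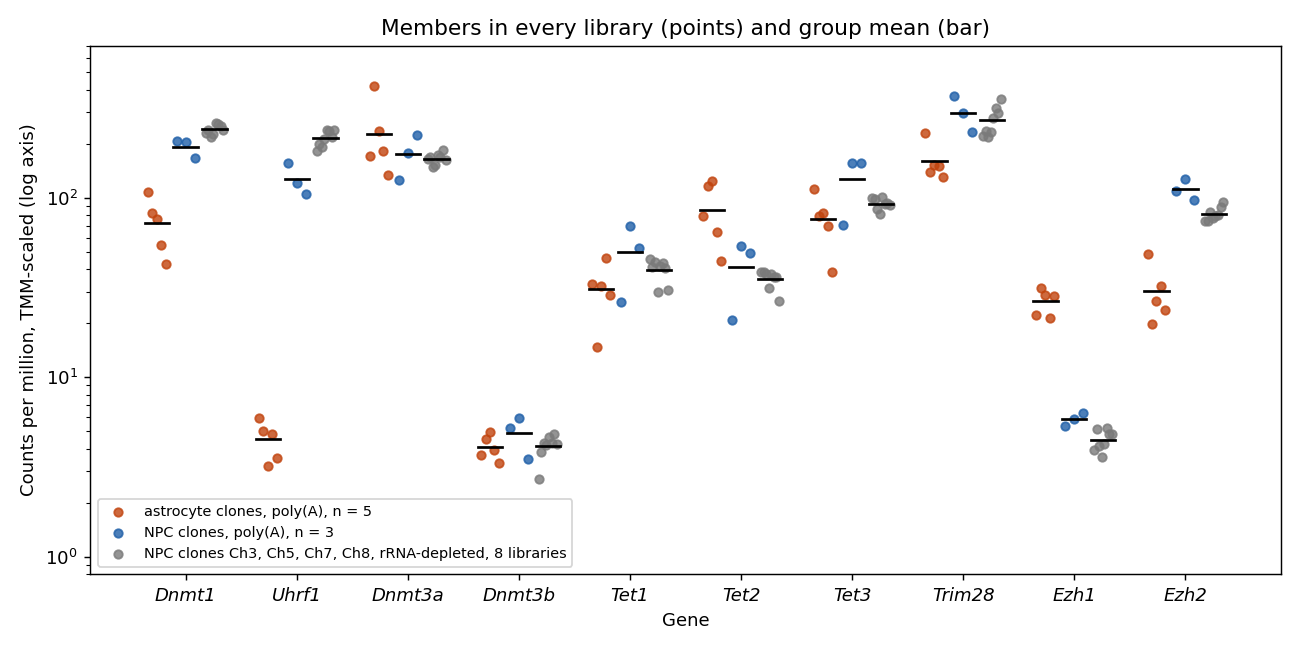
Level of each of the 10 genes in every library, as TMM-scaled CPM on a log axis, with points for libraries and bars for group means. Uhrf1 lay between 3.20 and 5.96 CPM in the 5 astrocyte libraries and between 105 and 157 CPM in the 3 poly(A) NPC libraries, and Ezh1 showed the opposite order; the rRNA-depleted libraries were scaled among themselves.

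The widest difference was that of Uhrf1, whose product recognises hemimethylated DNA. Its level was 5.96 CPM in clone 129, 5.01 in C2, 3.20 in G4, 4.82 in mC3 and 3.53 in mE6, against 157 CPM in F5, 121 in mG2 and 105 in mG6. Every astrocyte library was below every NPC library, by a log2 fold change of -4.82 ± 0.26 (SE), or 28.3-fold, with an adjusted p of 2.56e-05 in edgeR's test. Dnmt1 moved the same way by less. It stood at 108 CPM in clone 129, 82.0 in C2, 76.2 in G4, 54.2 in mC3 and 42.7 in mE6, and at 208, 203 and 165 CPM in F5, mG2 and mG6. The groups did not overlap, and the difference was 2.65-fold (log2 -1.40 ± 0.28 SE, edgeR adjusted p = 0.00957). The SD of Dnmt1 was alike, 25.3 CPM among astrocyte clones and 23.2 CPM among poly(A) NPC clones. Relative to the means of 72.6 and 192 CPM, the coefficient of variation was 34.9% against 12.1%. A difference in spread was not tested.

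The proliferation markers given above moved with Uhrf1 and Dnmt1, and their part in these differences was not tested. Over the 8 poly(A) libraries, among tested genes with a mean of at least 5 CPM, those whose log2 CPM followed Uhrf1 most closely were Iqgap3, Birc5 and Plk1, with Pearson's r of 0.999, 0.998 and 0.998. For Dnmt1 they were Cirh1a, Prpf4 and Lsm11, with r of 0.993, 0.991 and 0.990. The 8 points share the division into both cell types, so these values describe mostly that division.

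The de novo methyltransferases did not pass the test. Dnmt3a, the more abundant of the pair, was read at 171 CPM in clone 129, 417 in C2, 236 in G4, 181 in mC3 and 134 in mE6, and at 126, 177 and 223 CPM in F5, mG2 and mG6. The ranges overlapped and clone C2 stood highest, and the log2 fold change was 0.38 with a 95% interval of -0.49 to 1.25. Dnmt3b was read at 3.32 to 4.94 CPM in astrocytes and 3.52 to 5.95 CPM in poly(A) NPCs, with a log2 fold change of -0.26 and an interval of -0.92 to 0.40.

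The TET genes did not pass either. Tet2 was the closest to the threshold. Its levels were 79.3 CPM in clone 129, 116 in C2, 123 in G4, 64.4 in mC3 and 44.7 in mE6, against 20.9 in F5, 53.7 in mG2 and 49.2 in mG6. Only mE6 fell inside the NPC range, and the log2 fold change of 1.05 ± 0.42 (SE) had an edgeR adjusted p of 0.0990. Tet1 ran from 14.7 CPM in C2 to 46.2 in mC3 among astrocytes and from 26.4 in F5 to 69.9 in mG2 among NPCs, with a log2 fold change of -0.68 (95% interval -1.57 to 0.21). Tet3 ran from 38.6 to 111 CPM and from 70.3 to 155 CPM, with a log2 fold change of -0.74 (-1.56 to 0.08). In all 3 TET genes the female NPC clone F5 was the lowest poly(A) NPC library, and its sex and its clone cannot be told apart.

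Trim28 was the highest of the 10 genes by length-scaled level in both cell types. It stood at 230.1 CPM in clone 129, 138 in C2, 153 in G4, 149.5 in mC3 and 131 in mE6, and at 368, 295 and 232 CPM in F5, mG2 and mG6. The groups did not overlap, but clone 129 lay next to mG6, apart from the other 4 astrocyte clones. The log2 fold change was -0.89 ± 0.23 (SE), with an edgeR adjusted p of 0.0250. The call was lost without clone mC3 (adjusted p = 0.0572), without F5 (0.0991) or without mG2 (0.0776), with the direction kept.

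The PRC2 catalytic subunits moved in opposite directions. Ezh2, the form known from dividing cells, was at 48.5 CPM in clone 129, 19.8 in C2, 26.7 in G4, 32.4 in mC3 and 23.6 in mE6, and at 109, 127 and 97.5 CPM in F5, mG2 and mG6. Ezh1, the form known from non-dividing cells, was at 22.2, 31.2, 28.9, 21.3 and 28.5 CPM in the same astrocyte clones and at 5.38, 5.85 and 6.29 CPM in the NPC clones. Neither gene's groups overlapped. Ezh2 was 3.68-fold lower in astrocytes (log2 -1.88 ± 0.28 SE, edgeR adjusted p = 0.00298) and Ezh1 was 4.53-fold higher (log2 2.18 ± 0.22 SE, edgeR adjusted p = 0.000450).

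**Figure D2:**
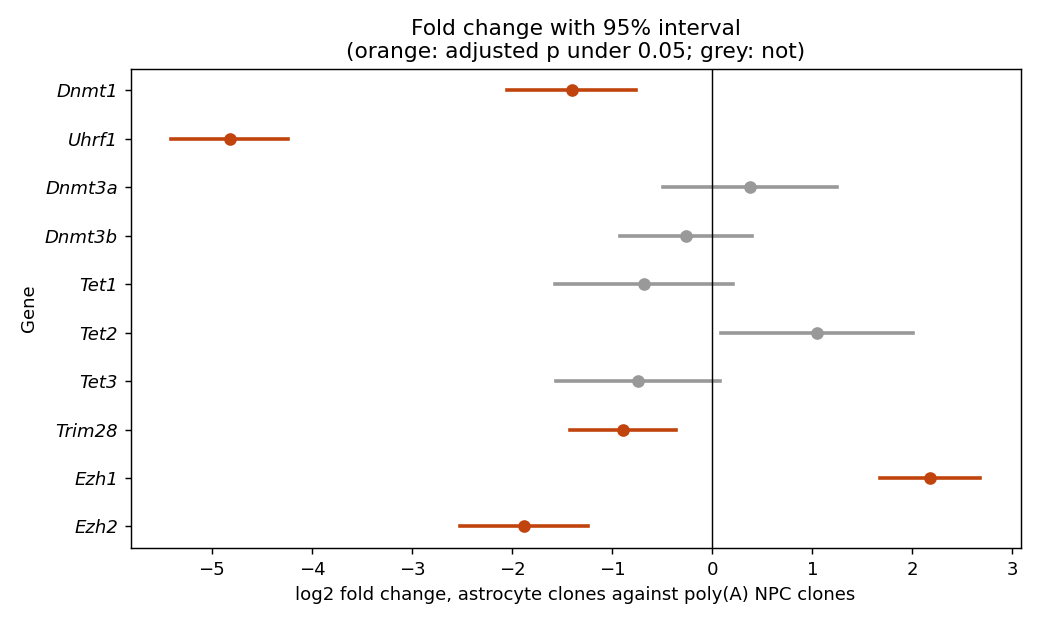
The log2 fold change of each gene, astrocyte clones against poly(A) NPC clones, with its 95% interval from the edgeR fit. Orange marks genes with an adjusted p under 0.05: Uhrf1 (-4.82), Ezh2 (-1.88), Dnmt1 (-1.40) and Trim28 (-0.89) lie left of 0 and Ezh1 (2.18) lies right of it, while the intervals of the other genes, except that of Tet2, cross 0.

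The ratio of Ezh2 to Ezh1 reads was also taken within each library, where scaling between libraries plays no part. Reads were not divided by gene length in these ratios, so their size also holds the lengths of both genes, while the difference between cell types does not. It was 2.18 in clone 129, 0.635 in C2, 0.924 in G4, 1.52 in mC3 and 0.828 in mE6, and 20.3, 21.7 and 15.5 in F5, mG2 and mG6. The rRNA-depleted clones lay at 15.96 to 20.7, inside the range of the poly(A) NPC clones. On the log2 scale the astrocyte mean was 0.14 ± 0.72 (SD, n = 5) and the NPC mean 4.25 ± 0.26 (SD, n = 3), a difference of -4.11. The two-sided exact permutation p was 0.0357, the smallest that 5 against 3 samples allow, and 0.107 after Benjamini-Hochberg adjustment over 3 ratios. Since both genes separated the groups in opposite directions, the ratio had to separate them too. This p was thereby fixed and adds nothing to the tests of the single genes.

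The other ratios overlapped between the cell types. Dnmt3a reads outnumbered Dnmt3b reads 40.2-fold to 91.8-fold in astrocytes and 24.1-fold to 63.4-fold in poly(A) NPCs (log2 difference 0.54, exact permutation p = 0.250, adjusted 0.375). The ratio of Tet3 to Tet1 was 1.35 to 5.37 in astrocytes and 2.22 to 2.95 in poly(A) NPCs (log2 difference -0.06, exact permutation p = 0.964, adjusted 0.964).

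To order the genes by level, CPM were divided by the length in kb of all annotated exons of a gene, with overlaps counted once. The order depends on this length, which was 16642 bases for Dnmt3a and 5264 for Dnmt1. Without it, their astrocyte means were 228 and 72.6 CPM. In poly(A) NPCs the order, as CPM per kb with SD over 3 clones, was Trim28 (73.7 ± 16.8), Dnmt1 (36.5 ± 4.41), Uhrf1 (29.9 ± 6.18), Ezh2 (17.9 ± 2.39), Tet3 (11.5 ± 4.43), Dnmt3a (10.5 ± 2.94), Tet2 (4.48 ± 1.93), Tet1 (3.38 ± 1.49), Dnmt3b (0.959 ± 0.244) and Ezh1 (0.785 ± 0.0613). Of the neighbours in this order, Dnmt1 and Uhrf1, Ezh2 and Tet3, Tet3 and Dnmt3a, Tet2 and Tet1, and Dnmt3b and Ezh1 differed by less than the sum of their SDs. In astrocytes Trim28 again led (39.7 ± 9.87, SD over 5 clones), Dnmt1 (13.8 ± 4.81) and Dnmt3a (13.7 ± 6.72) were alike within their SDs, and Uhrf1 had dropped to 1.06 ± 0.266, next to Dnmt3b at 0.800 ± 0.128. Ezh1 (3.55 ± 0.591) and Ezh2 (4.87 ± 1.81) lay within their SDs of each other in astrocytes.

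The genes most like Ezh1 over the 8 poly(A) libraries were Tcfeb, Sstr2 and Cadm1 (r of 0.998, 0.994 and 0.993), and those most like Ezh2 were Rrp1b, Hnrnpa1 and Gm7729 (r of 0.994, 0.993 and 0.992). Trim28 was followed by Dhx16, Cdk4 and Rqcd1 (0.991, 0.990 and 0.989). For Dnmt3a, Kif13b, Heatr5b and Nrip1 came closest (0.977, 0.969 and 0.968), and for Tet2, Med13l, Mllt6 and Zfp780b (0.986, 0.983 and 0.980). Tet3 was closest to Thada (0.980), while the highest r of Tet1 was 0.946, with 4933407K13Rik, and that of Dnmt3b 0.952, with Irx3. The same division into cell types is shared by all of these points.

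Promoter sequences are shown for the 4 genes with the widest called differences, 3 of them lower and 1 higher in astrocytes, to set their letters side by side. All 10 genes matched the RefSeq table (GRCm38.p6) with 15 promoter entries of 300 bases, from 250 before to 50 after an annotated start. Uhrf1 and Ezh1 are shown over the 250 bases before the start and Ezh2 over the last 150 of them. Dnmt1 is shown only over 30 bases around its E2F letters, and the same entry also held CCAAT outside that stretch. For Uhrf1 and Dnmt1, which had more than 1 entry, the entry shown is the one that held the E2F letters. Capitals mark the E2F motif (TTTCCCGC, TTTGGCGC, TTTCGCGC or TTTGCCGC) and CCAAT, on either strand, so that GCGCGAAA and ATTGG are the same motifs read on the other strand.
Uhrf1, chr17:56304063-56304312, plus strand: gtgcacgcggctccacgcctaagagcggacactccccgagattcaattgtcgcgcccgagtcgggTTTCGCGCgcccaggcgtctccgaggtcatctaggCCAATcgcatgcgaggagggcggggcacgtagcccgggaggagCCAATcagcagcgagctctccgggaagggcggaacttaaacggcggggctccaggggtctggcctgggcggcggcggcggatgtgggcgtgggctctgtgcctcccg
Dnmt1, chr9:20952822-20952851, minus strand: tttccgcgcGCGCGAAAaagccggggtctc
Ezh2, chr6:47595031-47595180, minus strand: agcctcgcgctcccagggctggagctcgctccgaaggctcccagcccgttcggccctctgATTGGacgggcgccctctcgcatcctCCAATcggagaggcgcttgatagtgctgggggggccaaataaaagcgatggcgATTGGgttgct
Ezh1, chr11:101226464-101226713, minus strand: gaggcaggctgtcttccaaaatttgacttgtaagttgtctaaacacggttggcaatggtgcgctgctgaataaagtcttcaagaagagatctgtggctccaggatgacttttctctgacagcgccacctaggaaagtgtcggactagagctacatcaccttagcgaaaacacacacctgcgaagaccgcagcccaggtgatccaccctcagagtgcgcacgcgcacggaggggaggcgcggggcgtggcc

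In Ezh2 the E2F letters lay in the first bases after the start and so outside the stretch shown. They were found in 1 of 2 promoter entries of Uhrf1, 1 of 3 of Dnmt1 and the single one of Ezh2. These were 3 of the 15 entries, and of 32851 mouse promoters of the same length, 2.26% held one of these 4 forms. Each form holds a CpG (C followed by G), and these entries had 31 to 33 CpG, against a median of 7 over all promoters. The share among promoters equally rich in CpG was not taken. CCAAT was found in 6 of the 15 entries, of Dnmt1, Uhrf1, Tet3 and Ezh2, against 37.4% of all promoters. The cell cycle homology region motif TTTGAA was in 2 of the 15, of Dnmt1 and Dnmt3b, against 17.9%. Neither share was tested against that of all promoters. None of these 3 motifs was in the single Ezh1 entry. A match describes letters in this window and not a binding site.

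The second question was whether both parental alleles of each gene were read. The allelic expression ratio is the percentage of allele-specific reads from the Cast allele (% Cast), called monoallelic under 15% or over 85%, biallelic from 35 to 65% and biased between. Of 120 values (10 genes in 12 clones, each with at least 20 allele-specific reads), 116 were biallelic, 1 was biased and 3 were monoallelic. Across all autosomal genes 82.1% of values were biallelic and 5.56% monoallelic. All 3 monoallelic values belonged to Dnmt3a.

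**Figure D3:**
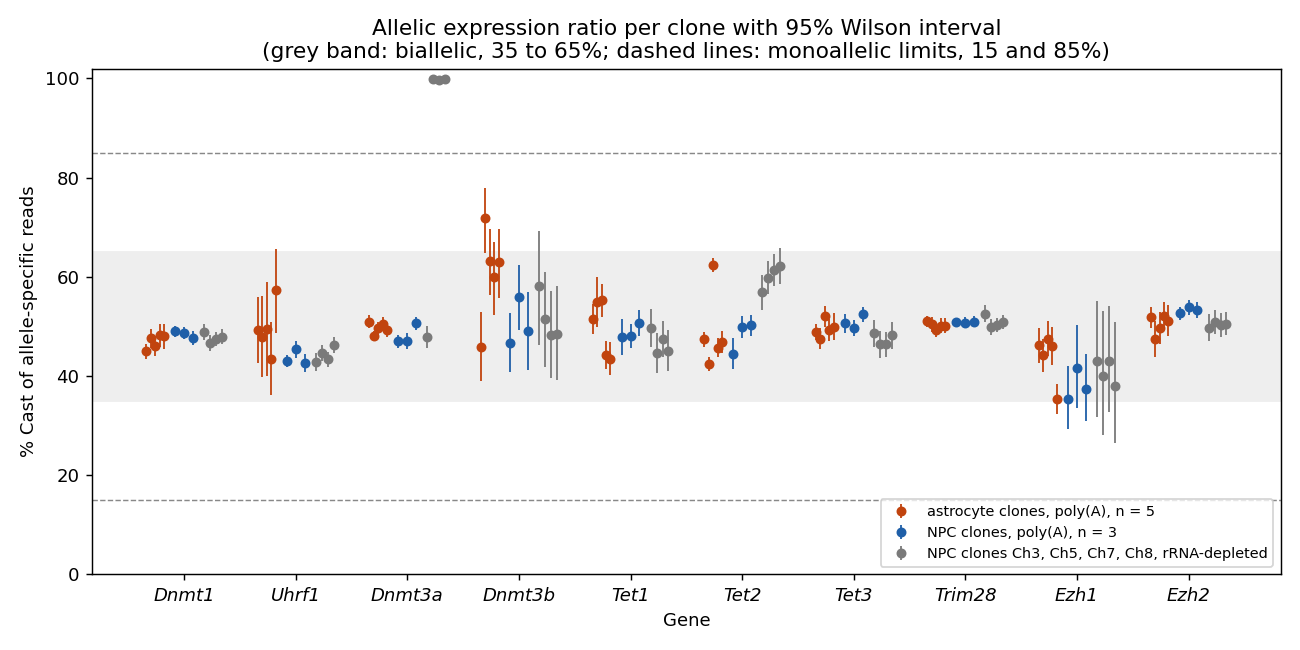
Allelic expression ratio of each gene in each of the 12 clones, as % Cast, with 95% Wilson intervals that cover counting error only. Most points lie in the grey biallelic band, while Dnmt3a lies at 99.7 to 99.9% Cast in Ch5, Ch7 and Ch8, and Tet2 lies at 56.9 to 62.2% Cast in the Ch clones and at 62.4% in astrocyte clone G4.

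In the libraries of Ch5 the Dnmt3a ratio was 99.8 and 99.9% Cast, in those of Ch7 99.5 and 99.8% and in those of Ch8 99.8 and 99.9%. In Ch3 it was 48.2% (397 of 824 allele-specific reads) and 47.5% (536 of 1129). Between 1 and 6 reads per library came from the 129 allele in Ch5, Ch7 and Ch8, out of 939 to 1197. In the 8 poly(A) clones the ratio was 47.0 to 50.9%. Dnmt3a was the only one of the 10 genes whose ratio differed among the 4 Ch clones (edgeR's quasi-likelihood test of Cast and 129 reads), where 9.31% of 8420 genes were called. The smallest adjusted p of the other 9 genes in that edgeR test was 0.475, for Uhrf1.

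Dnmt3a (chr12:3801559-3914443 on GRCm38) did not stand alone on its chromosome. Of the chromosome 12 genes in this test, 299 of 301 differed among the Ch clones, against 5.97% of 8119 genes on the other autosomes. The share of chromosome 12 genes over 95% Cast was 98.3% in Ch5, 98.9% in Ch7 and 99.1% in Ch8, and 0.289% in Ch3. Within 10 Mb of Dnmt3a, 27 of 29 genes were over 95% Cast in Ch5 and 26 of 28 in each of Ch7 and Ch8, and none of 28 was in Ch3.

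**Figure D4:**
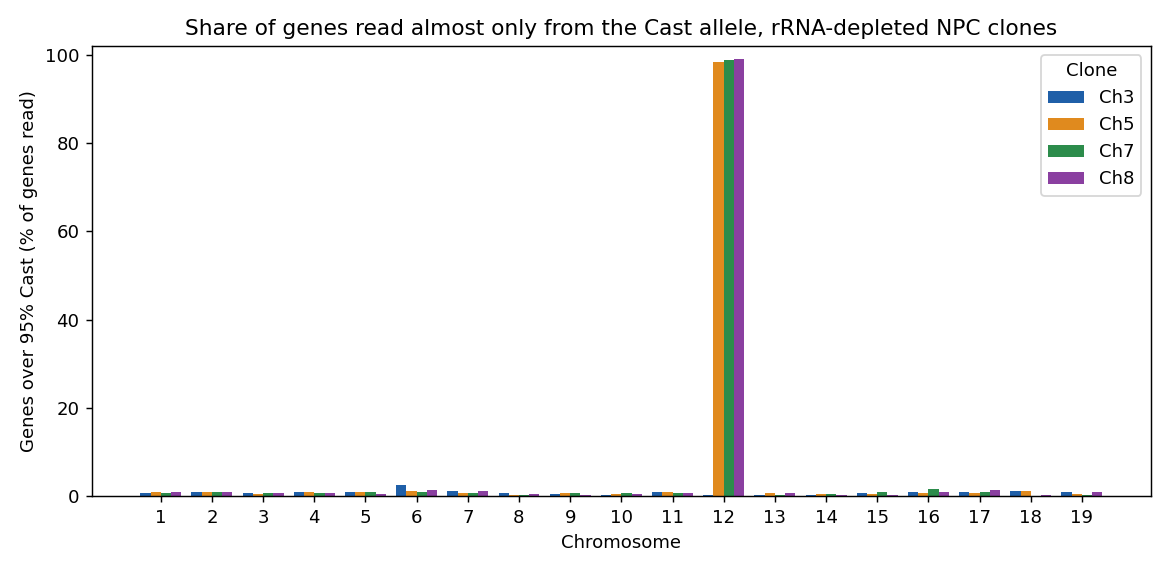
Share of genes over 95% Cast on each autosome in the 4 rRNA-depleted NPC clones. On chromosome 12 the bars of Ch5, Ch7 and Ch8 stand at 98.3, 98.9 and 99.1% and that of Ch3 at 0.289%, while no bar of another autosome exceeds 2.48%.

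The level of Dnmt3a did not follow its ratio. The libraries of Ch3 stood at 164 and 169 CPM, those of Ch5 at 149 and 153, those of Ch7 at 172 and 169 and those of Ch8 at 184 and 162. Ch3 lay inside the range of the other clones, with a log2 difference of 0.02 against their mean (95% interval -0.14 to 0.18, edgeR adjusted p = 0.894). The genes within 10 Mb of it had a median log2 level, each clone against the mean of the other 3 Ch clones, of -0.15 in Ch3, 0.09 in Ch5, -0.06 in Ch7 and 0.01 in Ch8. Female clones F5 and G4 had chromosome 12 medians of 64.9 and 62.4% Cast, but 49.1 and 46.8% within 10 Mb of Dnmt3a, where the gene itself was at 47.0 and 49.6%.

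The ratio of Tet2 (chr3:133463677-133545136) also differed between clones. It was 57.5 and 56.3% Cast in the libraries of Ch3, 61.6 and 57.3% in Ch5, 60.1 and 62.7% in Ch7 and 60.9 and 64.0% in Ch8. All 8 lay above the 44.5, 49.9 and 50.2% of F5, mG2 and mG6, while the genes within 10 Mb had medians of 48.2 to 50.7% in the Ch clones. Library preparation, sequencing depth and clone differ together between these NPC groups and cannot be told apart. Among astrocytes Tet2 was at 62.4% in clone G4 and at 42.3 to 47.4% in the other 4, and in G4 the genes within 10 Mb had a median of 66.9% Cast and a median log2 level of 0.32 against the mean of the other 4 astrocyte clones.

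Cast and 129 reads were next tested against each other within each cell type, over 8613 genes with enough reads in all 12 clones. Each clone was counted as a separate unit, and whether the Ch clones arose independently of each other was not tested. In astrocytes 3 of the 10 genes had unequal alleles. Dnmt1 (47.0% Cast ± 1.38, SD, n = 5) and Ezh1 (43.8 ± 4.92) had fewer Cast reads and Dnmt3b (60.7 ± 9.45) had more, with edgeR adjusted p of 0.00234, 0.0182 and 0.0169. Among all genes tested, 19.9% had fewer and 13.0% more Cast reads. In the 7 NPC clones Dnmt1 (48.0 ± 0.864, SD, n = 7), Uhrf1 (44.0 ± 1.40) and Ezh1 (39.8 ± 2.98) had fewer Cast reads, with edgeR adjusted p of 0.00910, 0.00194 and 0.000399, where 25.6% of all genes had fewer and 14.9% more. With the poly(A) clones alone, the NPC calls of Dnmt1 (log2 -0.09, edgeR adjusted p = 0.208) and Uhrf1 (-0.37 against -0.35 in all 7 clones, 0.0690) were lost and Ezh2 was called (0.19, 0.0483). The Dnmt1 call was also lost with TMM over the allele columns (-0.06, edgeR adjusted p = 0.144).

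Tet1 did not pass in either cell type, but its astrocyte clones lay apart. The female clones 129, C2 and G4 were at 51.5, 54.9 and 55.3% Cast and the male clones mC3 and mE6 at 44.2 and 43.5%, with no overlap of the 95% Wilson intervals between both sets. These intervals cover counting error only, and sex and clone cannot be told apart here. The 7 NPC clones lay at 44.7 to 50.7%, with the female F5 at 47.9% and the male poly(A) clones mG2 and mG6 at 48.1 and 50.7%.

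Depth differed widely behind these ratios. Uhrf1 rested on 2854 to 6232 allele-specific reads in the NPC clones and on 103 to 215 in astrocytes, where the clones ranged from 43.4 to 57.4% Cast. Dnmt3b rested on 167 to 196 reads in astrocytes, and clone 129 at 45.8% stood apart from the other 4 at 59.9 to 71.8%. Its call was lost without C2, G4 or mE6 (edgeR adjusted p of 0.0657, 0.0505 and 0.0542), and that of Ezh1 was lost without mE6 (0.0562). Ezh1 had 30 and 28 reads in the libraries of Ch8, which gave 56.7% Cast (95% Wilson interval 39.2 to 72.6) and 17.9% (7.88 to 35.6), so these libraries of 1 clone differed more than their intervals.

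No gene of the 10 passed the test of a difference in allelic ratio between astrocytes and NPC clones (edgeR's quasi-likelihood test), where 3.95% of all genes had a higher and 3.87% a lower Cast share in astrocytes. At an unadjusted p under 0.05 there were 2, Uhrf1 (0.0149) and Dnmt3b (0.0308), and DESeq2 called none. The allele difference of Uhrf1 was 0.32 higher in astrocytes on the log2 scale, with a 95% interval of 0.07 to 0.56, and that of Dnmt3b was 0.58 higher (0.06 to 1.10). For Dnmt3a the interval was -7.10 to 2.16, since the clones with a Cast-only chromosome 12 entered the NPC group, and without Ch5, Ch7 and Ch8 the difference was 0.09. That last fit was chosen after seeing the data.

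Within the NPCs, levels were also compared among the 4 Ch clones and between preparations. Trim28 was the 1 of 10 genes that differed among the Ch clones (edgeR adjusted p = 0.0103), where 16.6% of 17095 genes did. It stood at 221 and 234 CPM in Ch3, 219 and 233 in Ch5, 279 and 317 in Ch7 and 297 and 352 in Ch8, so that Ch3 and Ch5 lay below Ch7 and Ch8 without overlap. A contrast of Ch3 with the mean of the other 3 clones was chosen with earlier results of these data known. In it Trim28 was lower in Ch3 by a log2 difference of -0.30 ± 0.09 (SE, edgeR adjusted p = 0.0462), although the means of Ch3 and Ch5 were 228 and 226 CPM. That call was lost without either library of Ch3, either of Ch7 or the second of Ch5, with adjusted p from 0.0532 to 0.274 in edgeR's test. In that contrast 6.79% of all genes were lower and 8.02% higher in Ch3, and the other 9 genes did not pass.

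Between the 4 rRNA-depleted and the 3 poly(A) NPC clones, 2 of the 10 genes differed, both higher after rRNA depletion. Uhrf1 was at 207 to 254 CPM against 98.2 to 144 CPM (log2 0.97 ± 0.16 SE, edgeR adjusted p = 0.00178), and Dnmt1 was at 240.2 to 277 CPM against 154 to 192 CPM (log2 0.54 ± 0.12 SE, edgeR adjusted p = 0.00704), both on 1 scale over the 7 clones. Neither gene's groups overlapped. Of all genes 23.2% were higher and 22.1% lower in this comparison, in which preparation, depth and clone cannot be told apart. The Ch clones also had chromosome 1 medians of 32.1 to 32.7% Cast, against 47.9 to 51.0% in F5, mG2 and mG6. Astrocyte clone 129 was at 34.2%. Whether the Ch clones arose independently of each other was not tested, and these p-values count them as separate units. Without F5, Tet1, Tet2 and Tet3 also passed, all lower after rRNA depletion (log2 -0.43, -0.34 and -0.54).

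Partner genes of the same pathways were counted from lists chosen with earlier results of these data known. Each count stands beside 12.6% lower and 13.0% higher in astrocytes among all 18192 genes tested. Of 9 cofactors of DNA methylation, 6 were lower in astrocytes and none was higher, with a median log2 fold change of -1.20 against 0.08 over all genes. Those with the smallest adjusted p were Hells, a chromatin remodeller needed for methylation (log2 -3.38), Pcna, the sliding clamp of replication (-2.03), and Ahcy, which clears S-adenosylhomocysteine (-1.20). Mat2a, which makes the methyl donor, was at a median of 371 CPM in astrocytes and 364 CPM in NPCs and did not pass. The edgeR adjusted p of Hells, Pcna and Ahcy were 0.000309, 0.000418 and 0.00576.

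Of 12 genes of demethylation and repair, 2 were higher, 2 were lower and 8 did not pass (median log2 -0.42). Over all genes tested, 13.0% were higher and 12.6% lower. Gadd45b, a stress-induced gene linked to demethylation, was at a median of 84.4 CPM in astrocytes and 1.16 CPM in NPCs (log2 6.23, edgeR adjusted p = 0.000119). Mbd4, a glycosylase for deaminated methylcytosine, was also higher (log2 1.10), while Parp1 (-1.56) and Apex1 (-0.85), both of base excision repair, were lower. Tdg, the glycosylase that removes TET products, had medians of 90.5 and 110 CPM and did not pass (edgeR adjusted p = 0.131).

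Of 17 tested genes of imprint maintenance and heterochromatin, 6 were lower and none was higher (median log2 -0.46). The smallest adjusted p were those of Chaf1a, of the replication-coupled chromatin assembly factor (log2 -2.55), Suv39h2, a histone H3K9 methyltransferase (-2.59), and Cbx3, a heterochromatin protein (-1.21). Zfp57 and Zfp445, zinc finger proteins that recruit TRIM28 to imprinted regions, did not pass: Zfp57 had medians of 8.30 and 14.5 CPM and Zfp445 of 195 and 178 CPM. Setdb1, the methyltransferase that TRIM28 recruits, had medians of 62.8 and 104 CPM (edgeR adjusted p = 0.240). Dppa3, known from germ cells and early embryos, had a median of 0 in astrocytes and was below the filter.

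Of 9 methyl-CpG readers, 2 were higher and none was lower (median log2 0.30): Zbtb4 (log2 1.57, edgeR adjusted p = 0.00422) and Zbtb38 (0.64, 0.0459). Of 12 PRC2 partners and H3K27 demethylases, Kdm6a was higher (log2 0.98), Eed (-0.74) and Phf19 (-2.59) were lower and 9 did not pass (median log2 -0.51). Both counts stand beside 13.0% higher and 12.6% lower over all genes tested. Suz12, a core PRC2 subunit, had medians of 80.8 and 123 CPM with an edgeR adjusted p of 0.0542. Kdm6a lies on the X chromosome and the cell types differ in their share of female clones, 3 of 5 and 1 of 3, so sex was not separated from cell type for it.

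**Figure D5:**
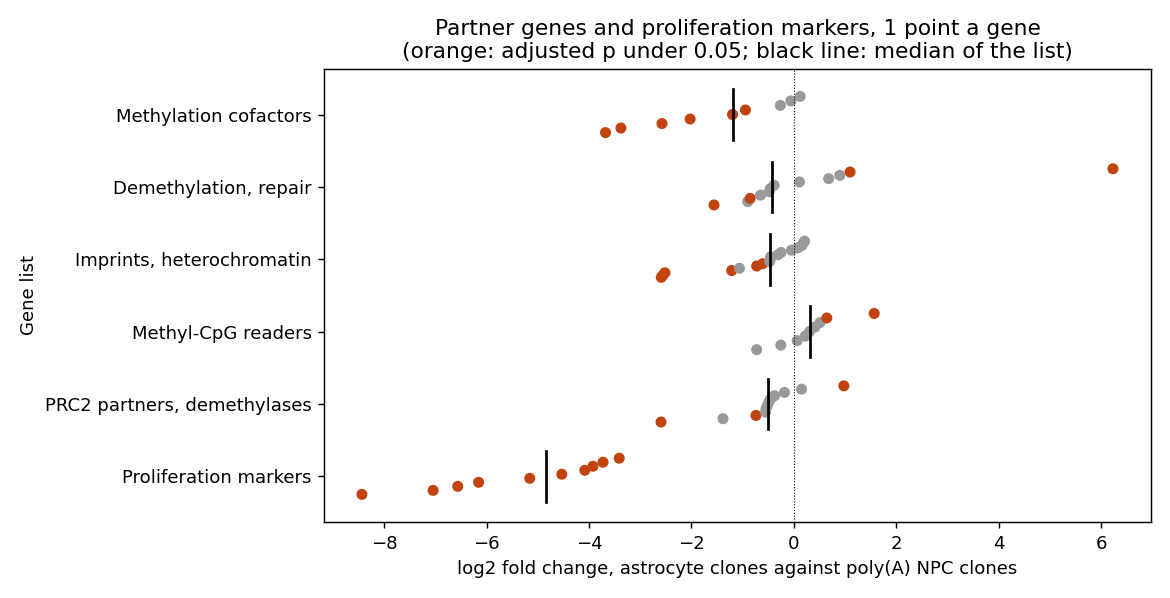
The log2 fold change of each tested partner gene and proliferation marker, astrocyte clones against poly(A) NPC clones, 1 point a gene, with the list's median as a black line. All 10 proliferation markers lie left of -3, the cofactor list has its median at -1.20, and Gadd45b at 6.23 is the highest point.

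Loci that depend on methylation were read only as counts. Of 13 germline genes known to be silenced by promoter methylation, 11 were under the filter in these libraries, among them Asz1, which had no read in any poly(A) library. Of all 50600 genes counted, 18192 passed the same filter. Tdrkh was not silent here, at 16.7 to 38.9 CPM in astrocytes and 58.6 to 70.1 CPM in poly(A) NPCs. It was lower in astrocytes (log2 -1.29, medians of 29.97 and 67.9 CPM), and Slc25a31 was called higher at a median of 0.139 against 0.0135 CPM. Of 23 imprinted genes matched, 31 of 77 values with enough reads were monoallelic in the astrocyte clones and 54 of 117 in the NPC clones. These were 40.3 and 46.2% of values, beside 5.62 and 5.52% over all autosomal genes. In NPCs, chromosome 12 was read almost only from Cast in Ch5, Ch7 and Ch8. On chromosome 18 of mG2, 289 of 291 genes were under 5% Cast. Any listed gene there counts as monoallelic whatever its imprint, and such values were not taken out.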

How the data were processed

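Stranded RNA-seq read pairs were aligned by the authors with TopHat2 2.1.0 and Bowtie2 to GRCm38/mm10 with strain variants masked, split by allele with SNPsplit and summed per gene with featureCounts 1.5.1. The deposited counts per gene (Cast, 129 and all reads) were used. The deposited fraction of Cast reads, which the authors gave from 10 allele-specific reads, was not used. The annotation release is not given in the sources used here. RefSeq supplied positions and promoters (GRCm38.p6), and exon lengths came from another annotation and served only to scale by length. Allele-specific reads cover only positions that differ between the strains, so their number limits each ratio.

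Members, lists and the contrast of Ch3 with the other Ch clones were chosen with earlier results of these data known. Levels were TMM-scaled CPM. edgeR 4.0.16 (R 4.3.3) quasi-likelihood tests were fitted over all genes passing its low-count filter, with a Benjamini-Hochberg adjusted p under 0.05 as the threshold; Cast and 129 counts were fitted with a term for each clone. Counts of both libraries of each Ch clone were added up wherever clones were the unit. Ratios needed 20 allele-specific reads. Exact permutation tests used scipy 1.17.1. The scripts were tested on simulated data. The genes named were the 10 members, the 3 genes most like each by Pearson's r of log2(CPM + 1) among those with a mean of at least 5 CPM (the first alone for Tet1, Tet3 and Dnmt3b) and, in each list, the 3 with the smallest adjusted p in each direction and defining genes at or near 0 (Dppa3, Asz1). Mat2a, Tdg, Zfp57, Zfp445, Setdb1 and Suz12 were named for their known roles after their values were seen. Alternatives included DESeq2 1.42.0, other scaling, no filter and leaving out samples.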

Additional observations from a re-analysis of the deposited data

Results flagged for a closer look

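Of 46 sets of 4 or 5 clones examined, 6 held a clone whose gap to the next was past Dixon's 95% critical value, where chance gives about 1 in 20. The Dnmt3a ratio of Ch3 was 47.8% Cast and those of the other Ch clones 99.7 to 99.9%, and the difference of 47.8% in Ch3 from the others also passed edgeR's test among the Ch clones. The Tet2 ratio of astrocyte clone G4 was 62.4% Cast, against 42.3 to 47.4% in the other astrocyte clones. Trim28 was at 230.1 CPM in astrocyte clone 129 and at 131 to 153 CPM in the others. The Ezh1 ratio was 35.3% Cast in astrocyte clone mE6 and 44.1 to 47.5% in the others. The log2 ratio of Dnmt3a to Dnmt3b reads was 6.52 in astrocyte clone C2 and 5.33 to 5.58 in the others. The log2 ratio of Tet3 to Tet1 reads was 1.38 in Ch8 and 1.17 to 1.20 in the other Ch clones.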

How the results depend on the processing

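Of 1078 values of single genes under an alternative, 1004 kept their direction and their side of the threshold, 16 lost the call, 19 gained one and 39 changed sign; the cause of these changes was not tested. In astrocytes against poly(A) NPC clones, 5 genes were called, 4 to 5 when a library was left out, and 6 when all 16 libraries shared the spread, with Tet2 added. Among the Ch clones 1 gene was called, and 2 with the replicate block, with no low-count filter or with DESeq2, with a range of 1 to 3 on leaving out a library (3 without Ch8 replicate 1). Ch3 against the other Ch clones gave 1 gene, 2 with the replicate block, and 0 to 2 on leaving out a library. Deviations of same-numbered Ch libraries correlated at -0.18 to 0.28 between clones, which does not settle whether the replicate numbers pair the libraries. The replicate block added Uhrf1 in both comparisons.

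Between preparations 2 genes were called, and 2 to 5 on leaving out a clone (5 without F5). Unequal alleles in astrocytes gave 3 genes, and 1 to 3 on leaving out a clone (1 without mE6, Dnmt1 alone). In NPC clones they gave 3, 6 with DESeq2, 4 with TMM over the allele columns and 2 with poly(A) clones only, or without Ch5, Ch7 and Ch8, a fit chosen after seeing the data. The allele difference between cell types gave 0, and 0 to 1 on leaving out a clone (1 without clone 129, Dnmt3b, and 1 without mC3, Uhrf1). The log2 Ezh2 to Ezh1 difference was -4.07 against all 7 NPC clones, again without overlap, which fixes the exact permutation p (0.00758 after adjustment). That of Tet3 to Tet1 turned to 0.0195 there and ran from -0.34 to 0.16 on leaving out a library.

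Signs changed only in genes that were not called. Between preparations the log2 difference turned to 0.0036 for Dnmt3b and 0.0092 for Tet2 with RLE factors, and to -0.0048 for Trim28 with no filter. Leaving out a clone gave ranges of -0.22 to 0.14 for Dnmt3b, -0.34 to 0.22 for Tet2, -0.0927 to 0.23 for Trim28, -0.0744 to 0.33 for Dnmt3a and -0.43 to 0.20 for Tet1. For Ch3 against the others, leaving out a library gave -0.0176 to 0.0464 for Dnmt3a and -0.18 to 0.21 for Ezh1. The astrocyte allele difference turned to 0.0224 for Dnmt3a, 0.0339 for Tet1, 0.0144 for Tet3 and 0.0116 for Uhrf1 with TMM over the allele columns. Leaving out a clone gave -0.0395 to 0.0030 for Dnmt3a, -0.0893 to 0.0841 for Tet1, -0.26 to 0.0346 for Tet2, -0.0001 to 0.0254 for Trim28 and -0.14 to 0.0575 for Uhrf1. With poly(A) clones only, the NPC allele difference was -0.10 for Dnmt3a, -0.10 for Tet2 and 0.0507 for Tet3, and without Ch5, Ch7 and Ch8 it was -0.11 for Dnmt3a and 0.0181 for Tet3. The difference between cell types was 0.0827 for Dnmt3a, 0.042 for Tet2 and -0.0796 for Tet3 with poly(A) clones only, 0.0889 for Dnmt3a and -0.0469 for Tet3 without Ch5, Ch7 and Ch8, and -0.0011 to 0.0691 for Tet3 on leaving out a clone. The few allele-specific reads of Dnmt3b and Ezh1 limit their ratios, and intervals cover counting error only.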
